A study of Rattus norvegicus with 6 samples.

Results

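The genes described here encode the nuclear pore complex and the receptors that carry cargo through it. They were taken by symbol as the protein-coding genes of the count table named Nup, Kpna or Kpnb, Ipo or Tnpo with a number, together with the Xpo genes, Pom121, Ndc1, Sec13 and Ranbp2. Seh1l, which the choice of symbols also names, is not analysed here. This gave 49 of the 19825 genes in the table, 25 of them nucleoporins and 24 transport receptors. Levels were compared between 3 RNA-seq libraries of H9C2 cells given a small interfering RNA that targets PUM2 (siPUM2 1, 2 and 3) and 3 control libraries (NC 1, 2 and 3).

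H9C2 is a line of myoblasts from embryonic rat heart, called cardiomyocytes in the labels. The labels give the control as cells that received an empty vector and name no non-targeting small interfering RNA, so that the groups may differ in what was transfected as well as in PUM2. PUM2 belongs to the Pumilio proteins, which bind a short element in messages and lower their stability or translation. Separate cultures are not stated for the libraries within a group. The p-values thus measure the spread between these samples alone, and that spread may be technical.

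The nuclear pore is a ring-shaped channel through the nuclear envelope, built from scaffold rings, membrane anchors and flexible nucleoporins rich in phenylalanine-glycine repeats that fill the passage. Importins bind cargo in the cytoplasm and release it in the nucleus when they meet the GTP-bound form of the small GTPase Ran, while exportins bind cargo together with that form and release it in the cytoplasm. Importin alpha proteins are adaptors that recognise the classical nuclear localisation signal and travel with importin beta. In dividing cells the pore is assembled both during mitosis and into growing interphase nuclei.

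The libraries held 27704702 to 30579237 counts, and 1 count was worth 0.0327 to 0.0361 CPM by library size alone. CPM elsewhere is the count scaled to a common library size with TMM factors. Pum2 gave 223, 228 and 225 CPM in the NC libraries against 127, 126 and 120 CPM in the siPUM2 libraries, with a log2 fold change of -0.86 ± 0.0279 (SE), so the labels and the targeted gene match. Libraries of a group differed by a chi-square of 2.07 to 2.90 per degree of freedom, except that siPUM2 3 differed from siPUM2 1 and siPUM2 2 by 3.80 and 3.54. The values between groups were 12.6 to 14.0. Of 11 markers of cardiomyocytes 9 were in the table and 5 were high enough to test. Myh6 lay below 1 CPM, and Myh7, Actc1, Tnni3 and Ryr2 were too low to test. The summed level of these 9 genes, nearly all of it Tnnt2, was 306 to 364 CPM in NC and 469 to 522 CPM in siPUM2. Of the 5 tested, Tnnt2 rose (log2 fold change 0.67) and the others were not called, with Nkx2-5, Gata4 and Myh6 at -0.14, -0.12 and -0.58 and Nppb at 0.34. Markers of endothelium (4 of 5 in the table, at most 0.25 CPM summed) and macrophages (2 of 4, at most 1.82 CPM) were near 0, with the endothelial gene Cdh5 at 0 counts in all NC libraries. Myoblast markers (5 of 7 in the table) summed to 126 to 134 CPM in NC and 119 to 129 CPM in siPUM2, with Myog lower (-1.12), Des higher (0.17, adjusted p = 0.0367) and Myod1 at 0.05 and not called. Chrna1 and Tnni1 lay below 1 CPM and were too low to test, with siPUM2 below NC in all libraries. Fibroblast markers (5 of 6 in the table) summed to 16973 to 17056 CPM in NC and 16573 to 17007 CPM in siPUM2, nearly all of it Col1a1 (-0.08, called lower) and Col1a2 (0.02, not called). Among them Postn fell 1.55-fold (adjusted p = 2.58e-11) and Thy1 rose 1.24-fold (adjusted p = 9.02e-11). Pdgfra had at most 4 counts in any library and was too low to test. The changes of Tnnt2, Myog, Postn and Thy1 were larger than those of the 18 pore and transport genes called below. The part of the cells that express these markers in the results below was not tested, and in bulk RNA fewer cells of a type and less RNA per cell cannot be told apart.

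Nuclear pore and transport genes were more often lower than higher in siPUM2, by small amounts. Of the 49 genes, 48 passed the filter on low counts, and 16 of them (33.3%) fell and 2 (4.17%) rose at an adjusted p under 0.05 (edgeR's quasi-likelihood test, p adjusted by Benjamini-Hochberg over all genes tested). Over all 12985 genes tested, 13.3% were called lower, 15.1% higher and 28.4% in either direction. Because small changes pass a test more readily in abundant genes, the same shares were taken over the 8718 genes of at least 10 CPM, where 37.3% were called, 17.8% lower and 19.5% higher. Of the 46 genes described here that reached that level, 34.8% were called lower and 4.35% higher. A floor does not by itself match abundance. Without the floor the median in NC was 72.9 CPM for the 48 genes and 23.3 CPM over all genes tested. The medians above the floor were not computed. The fold changes of the 16 genes that fell ran from 1.07-fold to 1.16-fold. The median log2 fold change of the 48 genes was -0.07, against 0.001 over all genes tested, and 36 were negative and 12 positive where all tested genes split into 6454 and 6531. NC and siPUM2 did not overlap in 28 of the 48 genes, 25 lower (52.1%) and 3 higher. Over all genes tested 19.2% were lower and 20.7% higher without overlap, and over those of at least 10 CPM 23.7% and 24.9%.

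**Figure D1:**
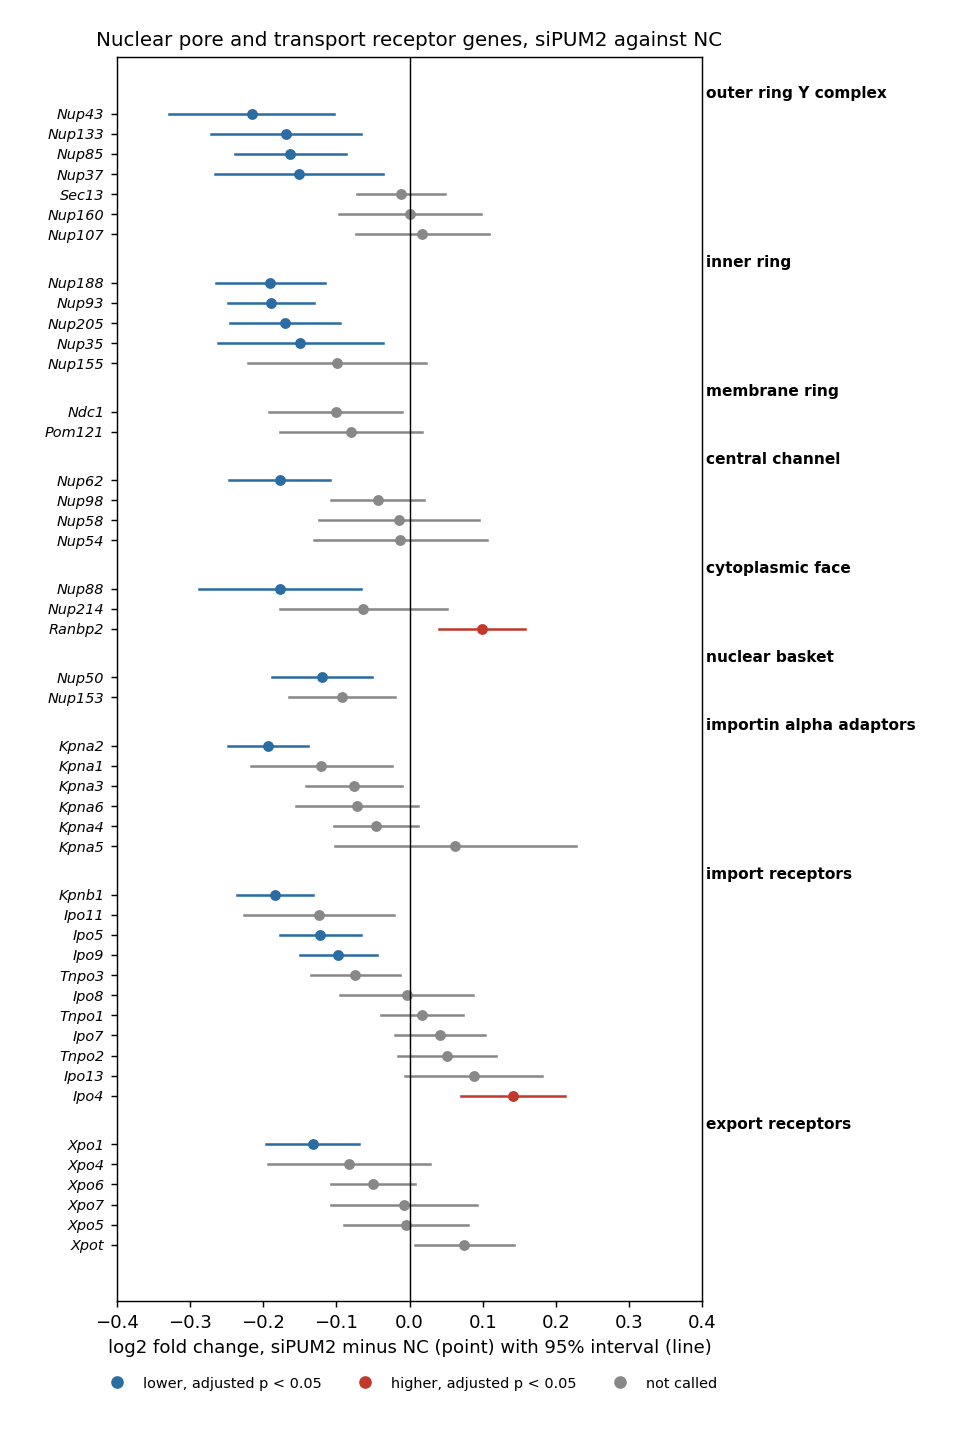
Log2 fold change (siPUM2 minus NC, x axis) with its 95% interval for the 46 genes of at least 10 CPM, grouped by role. Points in blue were called lower, in red higher and in grey not called. The 16 genes called lower lie between -0.22 and -0.10, and Ipo4 (0.14) and Ranbp2 (0.10) are the genes called higher.

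By class, 11 of 25 nucleoporins (44%) fell and 1 rose, with a median log2 fold change of -0.10. Of 23 transport receptors tested 5 (21.7%) fell and 1 rose, with a median of -0.05. The share of receptors that fell is near the 17.8% of all genes of at least 10 CPM, so the count by itself does not set the receptors apart. The called genes were the more abundant ones, with a median of 84.4 CPM in NC against 56.1 CPM for the genes not called. Without siPUM2 3, 15 genes were called lower and 2 higher. Without NC 2, 12 were called lower.

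The adaptor and the receptor best known for classical import, Kpna2 and Kpnb1, both fell, and of the importin alpha genes Kpna2 was the one called. Kpna2 (karyopherin alpha 2, chromosome 10), an adaptor known to be abundant in dividing cells, gave 198, 199 and 193 CPM in the NC libraries (in the order 1, 2, 3) against 172, 168 and 176 CPM in the siPUM2 libraries. All siPUM2 libraries lay below all NC libraries. The mean fell 1.14-fold, from 197 ± 3.3 to 172 ± 3.73 CPM (SD, n = 3 each; log2 fold change -0.19 ± 0.0268, SE; adjusted p = 2.29e-06, edgeR). A karyopherin alpha 2-like gene on chromosome 6, LOC100359600, may share reads with Kpna2, and was itself lower (423 to 382 counts in NC and 303 to 290 in siPUM2). With its counts added to those of Kpna2 the log2 fold change was -0.20 (adjusted p = 8.31e-07, edgeR). The call thus does not rest on how the counted reads were split between them. Reads that match both and were left uncounted, if any, are not covered by this sum.

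The 250 bases before the start of Kpna2 are shown because this is the called gene with the lowest p among those with a promoter entry. They are from RefSeq on GRCr8 (chr10:92445842-92446091, minus strand), with the CCAAT box of NFY (CCAAT) and the GC box of SP1 (GGGCGG), on either strand, in capitals.
Kpna2: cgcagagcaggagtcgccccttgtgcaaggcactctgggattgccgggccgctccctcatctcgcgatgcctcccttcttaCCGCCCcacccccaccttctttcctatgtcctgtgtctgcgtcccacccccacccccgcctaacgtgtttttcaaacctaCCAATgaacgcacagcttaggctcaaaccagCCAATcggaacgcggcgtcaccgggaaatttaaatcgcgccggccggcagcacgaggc
Both CCAAT matches of Kpna2 lie within 100 bases of the start, at -89 and -58 counted back from the start, and the GC box match lies at -169.

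Of the other 5 importin alpha genes tested none was called. Kpna1 and Kpna3 had log2 fold changes of -0.12 (adjusted p = 0.0551) and -0.08 (0.0796), and the values of Kpna6 and Kpna4 were -0.07 and -0.05. In these 4 genes no siPUM2 library reached the lowest NC library, yet the intervals of Kpna6 (-0.15 to 0.01) and Kpna4 (-0.10 to 0.01) included 0. Kpna5, the least abundant importin alpha gene tested at 12.9 ± 0.943 CPM in NC, stood at 0.06 with overlapping groups. Kpna7, an adaptor known from oocytes and early embryos, did not pass the filter. It had 8, 15 and 12 counts in NC and 1, 3 and 5 in siPUM2, which is 35 against 9 in all. In a fit of all genes with no filter it was called lower (log2 fold change -1.85, adjusted p = 0.0239).

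Measured per gene length, Kpna2 made up most of the importin alpha messages. Its share of their summed FPKM was 68.3%, 68.3% and 67.7% in NC and 66.0%, 65.5% and 67.2% in siPUM2, and the mean went from 68.1 ± 0.352% to 66.2 ± 0.866%. The groups did not overlap, with siPUM2 3 nearest to NC. Shares of Kpna4 (6.79 ± 0.0570% to 7.31 ± 0.117%) and Kpna6 (6.52 ± 0.0870% to 6.90 ± 0.190%) were higher in each siPUM2 library than in any NC library, although the levels of these genes were not. Since the shares add up to a fixed total, a lower share of Kpna2 raises the others. The summed FPKM of the importin alpha genes went from 129 ± 1.3 to 116 ± 1.0.

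**Figure D2:**
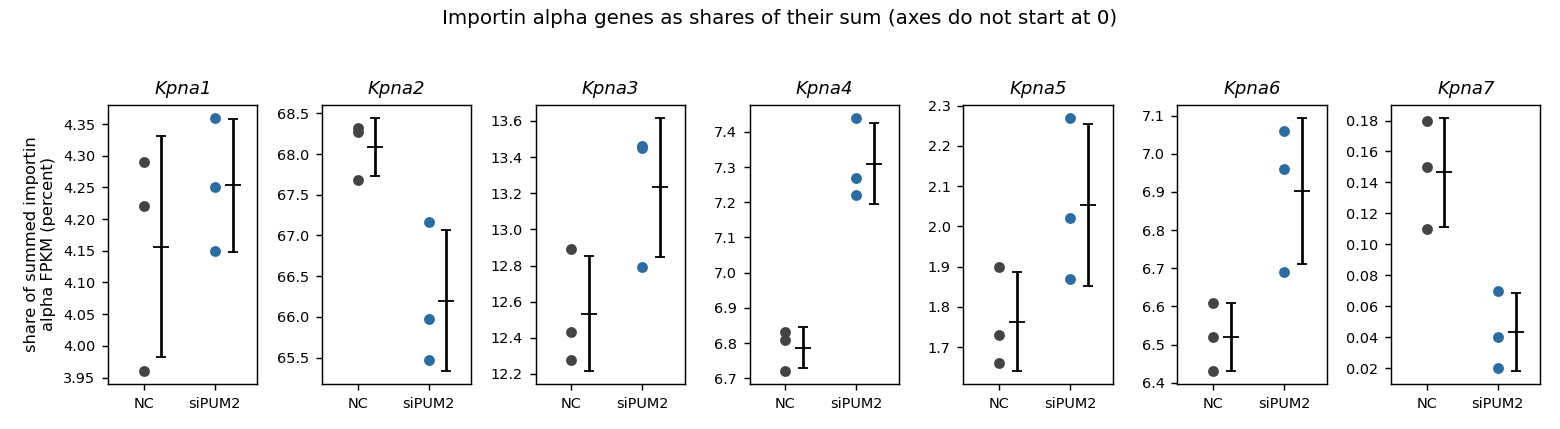
Share of each importin alpha gene in their summed FPKM (y axis, percent, with its own range in each panel) by library, with the mean and SD of 3 libraries beside the points. Kpna2 lies at 67.7% or more in NC and at 67.2% or less in siPUM2.

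Importin beta, Kpnb1 (chromosome 10), is the receptor that carries importin alpha and its cargo through the pore, and it was the transport receptor with the highest CPM. It gave 298, 302 and 306 CPM in the NC libraries against 269, 264 and 264 CPM in the siPUM2 libraries. The gap between the groups was wider than the range within either. The mean fell 1.14-fold, from 302 ± 4.02 to 266 ± 2.99 CPM (log2 fold change -0.18 ± 0.0252, SE; adjusted p = 1.94e-06, edgeR). Measured per length, Kpnb1 stood at 73.6 ± 1.08 FPKM in NC and 64.7 ± 0.828 FPKM in siPUM2.

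Among the other import receptors 2 fell, 1 rose and 7 were not called. Over all genes of at least 10 CPM 17.8% fell and 19.5% rose, so the number that fell is no result about these receptors. Ipo5 (chromosome 15), which imports ribosomal proteins and histones, gave 245, 254 and 248 CPM in the NC libraries against 222, 230 and 235 CPM in the siPUM2 libraries, a 1.09-fold fall (adjusted p = 0.000992). Ipo9 (chromosome 13), a receptor for histones, gave 197, 198 and 198 CPM in the NC libraries against 185, 187 and 182 CPM in the siPUM2 libraries, a 1.07-fold fall (adjusted p = 0.00467). In both genes the groups did not overlap, and NC varied less for Ipo9 (SD 0.569 CPM) than for Ipo5 (SD 4.26 CPM).

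Ipo4 (chromosome 15), another receptor for histones, went the other way. It gave 78.4, 81.0 and 82.3 CPM in the NC libraries against 90.9, 91.6 and 84.2 CPM in the siPUM2 libraries. The siPUM2 libraries all lay above NC, siPUM2 3 only just. The mean rose 1.10-fold, from 80.6 ± 2.01 to 88.9 ± 4.06 CPM (log2 fold change 0.14 ± 0.0345, SE; adjusted p = 0.00246, edgeR), and the call remained in each of the alternative settings tried.

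The import receptors not called differed in how far their intervals allow a change. Tnpo1, which imports hnRNP proteins through a proline-tyrosine signal, had a log2 fold change of 0.02 with a 95% interval of -0.04 to 0.07. Its close relative Tnpo2 stood at 0.05 (-0.02 to 0.12), and Ipo7, a receptor for ribosomal proteins, at 0.04 (-0.02 to 0.10). For these genes the intervals leave room for changes of a few percent at most in the direction of a fall. Tnpo3, the receptor for SR splicing factors, was at -0.07 (adjusted p = 0.0636) and Ipo11 at -0.12 (0.0632), both with siPUM2 below NC in all libraries. Ipo13, which works in both directions, was at 0.09 (adjusted p = 0.161) with siPUM2 above NC in all libraries, and Ipo8 was at -0.004 (-0.09 to 0.09).

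Of 6 exportins 1 was called, and it was lower. This is near the 17.8% of all genes of at least 10 CPM called lower, and is no result about the exportins. Xpo1 (CRM1, chromosome 14), the general exporter of proteins with a leucine-rich signal and of several RNAs, gave 171, 163 and 173 CPM in the NC libraries against 152, 162 and 149 CPM in the siPUM2 libraries. The highest siPUM2 library, siPUM2 2, lay just under the lowest NC library, NC 2. The mean fell 1.10-fold, from 169 ± 5.27 to 154 ± 6.81 CPM (log2 fold change -0.13 ± 0.0309, SE; adjusted p = 0.00157, edgeR). The exporter of transfer RNA, Xpot, was at 0.08 (adjusted p = 0.0894). Xpo5, which exports precursor microRNAs, was at -0.01 with an interval of -0.09 to 0.08, and its siPUM2 libraries spread from 68.4 to 78.9 CPM around the NC values. Xpo6, the exporter of actin, was at -0.05 (adjusted p = 0.193), Xpo4 at -0.08 (0.278) and Xpo7 at -0.01 (0.927), and all 3 had overlapping groups.

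The inner ring of the pore, the scaffold that lines the channel and holds the central nucleoporins, had 4 of its 5 genes called lower. Over all genes of at least 10 CPM, 17.8% were called lower. Nup93 (chromosome 19), which anchors the ring, gave 116, 119 and 118 CPM in the NC libraries against 106, 102 and 101 CPM in the siPUM2 libraries. This was a 1.14-fold fall, from 118 ± 1.91 to 103 ± 2.20 CPM (log2 fold change -0.19 ± 0.0288, SE; adjusted p = 9.40e-06, edgeR), with a gap of several SD between the groups. Nup188 and Nup205 are large related scaffold proteins that each bind Nup93. Nup188 (chromosome 3) gave 76.9, 84.3 and 83.2 CPM in the NC libraries against 69.8, 71.7 and 72.8 CPM in the siPUM2 libraries, a fall of 1.14-fold (adjusted p = 0.000188). Nup205 (chromosome 4) gave 72.8, 71.4 and 73.8 CPM in the NC libraries against 66.5, 63.8 and 63.6 CPM in the siPUM2 libraries, a fall of 1.13-fold (adjusted p = 0.000680). The groups did not overlap in any of these 3 genes, although NC 1 of Nup188 lay closer to siPUM2 than to the other NC libraries.

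The fourth called gene of the ring, Nup35 (chromosome 3), a membrane-binding subunit, was lower in abundance and less certain. It gave 39.4, 42.9 and 41.2 CPM in the NC libraries against 35.8, 38.5 and 37.2 CPM in the siPUM2 libraries, with less than 1 CPM between the nearest libraries of the groups. Its adjusted p was 0.0413, and the call was lost without NC 2 (0.177), without NC 3 (0.0827) and without siPUM2 1 (0.121), and on log2(FPKM + 1) (0.134). The fifth gene, Nup155, was at -0.10 with an interval of -0.22 to 0.02 and overlapping groups. The summed FPKM of the inner ring was 63.3 ± 1.64 in NC and 56.0 ± 0.531 in siPUM2.

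The promoter of Nup93 is shown because its gene had the lowest p among nucleoporins. The 250 bases before its start are from RefSeq on GRCr8 (chr19:10793938-10794187, minus strand), with CCAAT and GGGCGG matches on either strand in capitals.
Nup93: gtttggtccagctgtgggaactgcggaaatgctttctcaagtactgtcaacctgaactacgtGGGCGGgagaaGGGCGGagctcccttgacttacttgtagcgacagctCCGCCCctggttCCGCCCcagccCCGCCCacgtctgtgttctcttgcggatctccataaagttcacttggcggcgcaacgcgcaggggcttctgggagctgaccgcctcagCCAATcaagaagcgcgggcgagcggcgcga
It holds 5 GC box matches between -188 and -118, and 1 CCAAT match at -30.

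The Y-shaped complex of the outer rings forms the cytoplasmic and nuclear faces of the scaffold. It had 4 of 7 measured genes called lower, against 17.8% of all genes of at least 10 CPM, and 3 close to 0. Nup43 (chromosome 1), a beta-propeller subunit, gave 31.7, 32.7 and 32.6 CPM in the NC libraries against 27.8, 27.0 and 28.6 CPM in the siPUM2 libraries. With a log2 fold change of -0.22 ± 0.0551 (SE) it had the lowest value of the 48 genes that passed the filter (adjusted p = 0.00356, edgeR), and the groups were well apart. Nup85 (chromosome 10), a scaffold subunit, gave 70.8, 77.1 and 74.9 CPM in the NC libraries against 66.0, 66.5 and 66.6 CPM in the siPUM2 libraries, a 1.12-fold fall (adjusted p = 0.00128). The siPUM2 libraries agreed to within 1 CPM while NC spread over 6 CPM.

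Nup133 and Nup37 were called with less margin. Nup133 (chromosome 19), at the tip of the complex, gave 50.5, 52.8 and 51.8 CPM in the NC libraries against 42.7, 48.1 and 47.2 CPM in the siPUM2 libraries (adjusted p = 0.0116). Its call was lost without siPUM2 1, the lowest library (adjusted p = 0.0999), and without NC 2 (0.0696). Nup37 (chromosome 7), another propeller, gave 29.0, 28.9 and 27.98 CPM in the NC libraries against 25.2, 26.7 and 25.5 CPM in the siPUM2 libraries. Its adjusted p of 0.0437 rose to between 0.0716 and 0.101 without NC 1, NC 2, siPUM2 1 or siPUM2 3, and was 0.0747 with DESeq2.

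Nup107 and Nup160, core subunits of the same complex, did not differ detectably. Nup107 gave 58.7, 55.3 and 61.9 CPM in the NC libraries against 59.1, 58.3 and 60.7 CPM in the siPUM2 libraries (log2 fold change 0.02, 95% interval -0.07 to 0.11). Nup160 was at 0.001 (-0.10 to 0.10). Sec13, which also serves the COPII coat of secretory vesicles, gave 169, 163 and 159 CPM in the NC libraries against 167, 157 and 163 CPM in the siPUM2 libraries (-0.01, interval -0.07 to 0.05). The intervals of Nup107 and Sec13 do not reach the value measured for Nup43, but differences between genes of the complex were not tested.

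Of the channel nucleoporins with phenylalanine-glycine repeats, Nup62 fell and its partners were not called. Nup62 (chromosome 1), which forms the central channel trimer with Nup54 and Nup58, gave 88.0, 84.6 and 89.2 CPM in the NC libraries against 76.6, 74.8 and 80.0 CPM in the siPUM2 libraries. The groups did not overlap, and the mean fell 1.13-fold, from 87.2 ± 2.38 to 77.1 ± 2.63 CPM (log2 fold change -0.18 ± 0.0336, SE; adjusted p = 0.000167, edgeR). Nup54 and Nup58 both stood at -0.01, with intervals of -0.13 to 0.11 and -0.12 to 0.09. Their levels per gene length in NC were 12.4 ± 0.448 and 7.59 ± 0.182 FPKM, against 21.8 ± 0.623 FPKM for Nup62. Nup98, whose message also encodes the outer ring protein Nup96, was at -0.04 (adjusted p = 0.320).

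On the cytoplasmic face 1 of 3 genes fell and 1 rose. These are too few to set beside the 17.8% lower and 19.5% higher over all genes of at least 10 CPM. Nup88 (chromosome 10), which holds Nup214 at the pore, gave 43.7, 48.1 and 48.9 CPM in the NC libraries against 43.2, 42.03 and 39.4 CPM in the siPUM2 libraries. The lowest NC library and the highest siPUM2 library nearly met. Its adjusted p was 0.0141, and the call was lost without NC 2 (0.0730) and without NC 3 (0.0892). Ranbp2 (Nup358, chromosome 20), the filament protein that binds Ran and acts as a SUMO ligase, gave 110, 110 and 107 CPM in the NC libraries against 118, 119 and 114 CPM in the siPUM2 libraries. It rose 1.07-fold with no overlap (adjusted p = 0.00982), and the call was lost without siPUM2 1 or siPUM2 2 (0.0602 each), on log2(FPKM + 1) (0.137) and log2(FPKM + 0.1) (0.130), and with the libraries' trends with gene length removed (0.145). Nup214 stood at -0.06 with overlapping groups.

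Of the 2 nuclear basket genes among the chosen symbols 1 fell, and in the membrane ring none of 4 was called. These are too few to set beside the 17.8% of all genes of at least 10 CPM called lower. Nup50 (chromosome 7), a basket protein that helps to recycle importin alpha, gave 101, 98.1 and 95.2 CPM in the NC libraries against 92.9, 85.6 and 91.9 CPM in the siPUM2 libraries. It fell 1.09-fold (adjusted p = 0.00714), with siPUM2 2 the lowest library, and the call was lost without siPUM2 2 (0.0924) and without NC 1 (0.0562). Nup153, another basket protein, was at -0.09, just short of a call (adjusted p = 0.0504) with siPUM2 below NC in all libraries. Tpr, a basket protein outside the chosen symbols, was at 0.06 with overlapping groups and was not called (adjusted p = 0.251). Of the membrane anchors, Ndc1 (-0.10, adjusted p = 0.0920) and Pom121 (-0.08, 0.226) were not called, again with no overlap. Nup210 and its relative Nup210l had 7 to 20 and 11 to 23 counts per library, too few to show a change of the size seen in the other genes: their intervals ran from -0.52 to 1.14 and from -0.32 to 1.07.

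**Figure D3:**
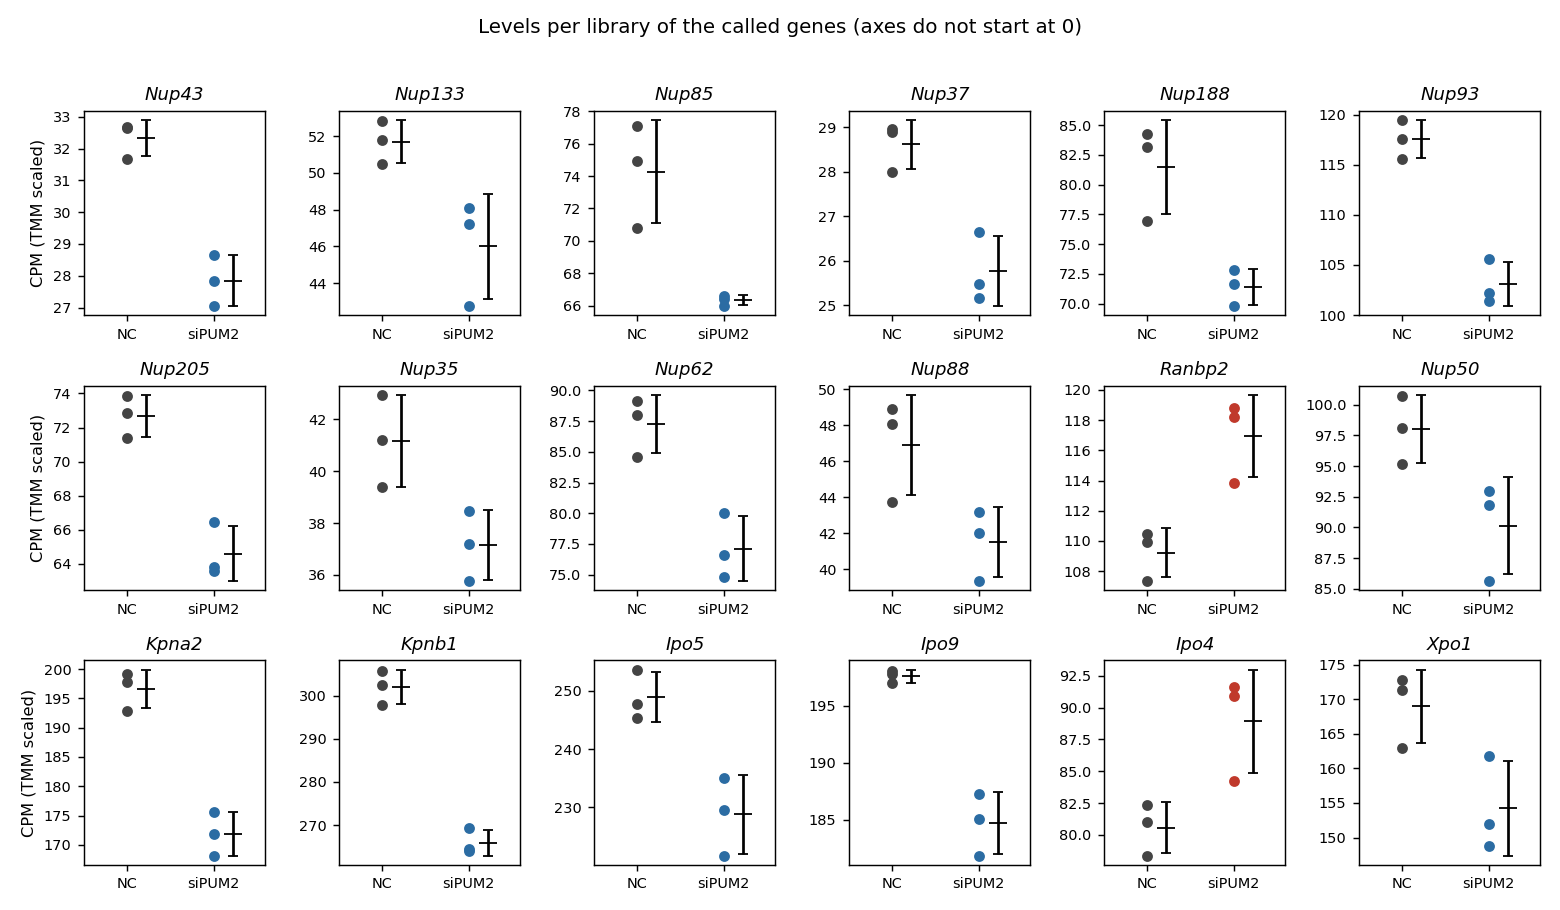
Level in each library (y axis, TMM-scaled CPM, with its own range in each panel) of the 18 called genes, with the mean and SD of 3 libraries beside the points. NC and siPUM2 do not overlap in any of them, and Ranbp2 and Ipo4 (red) are higher in siPUM2.

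Levels between genes were compared per length, in the deposited FPKM. Sec13 was highest in NC at 114 ± 3.63 FPKM, followed by Kpna2 at 88.1 ± 1.33, Kpnb1 at 73.6 ± 1.08 and Ipo5 at 45.7 ± 0.761. Nup93 (32.6 ± 0.529) and Nup85 (31.7 ± 1.36) came next, and differed by less than the spread of Nup85. Xpo1 stood at 30.5 ± 0.988 FPKM and Nup50 at 29.0 ± 0.780. Among the highest genes of each role, Ndc1 led the membrane ring at 10.6 ± 0.286 FPKM and Nup88 the cytoplasmic face at 17.2 ± 1.04. Within the inner ring the levels ran from Nup93 down to Nup35 at 3.20 ± 0.135 FPKM, and within the Y complex from Sec13 to Nup160 at 4.38 ± 0.294. At the low end, Kpna7, Nup210l and Nup210 were at 0.190, 0.0600 and 0.0530 FPKM. These 3 had at most 23 counts in any library.

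**Figure D4:**
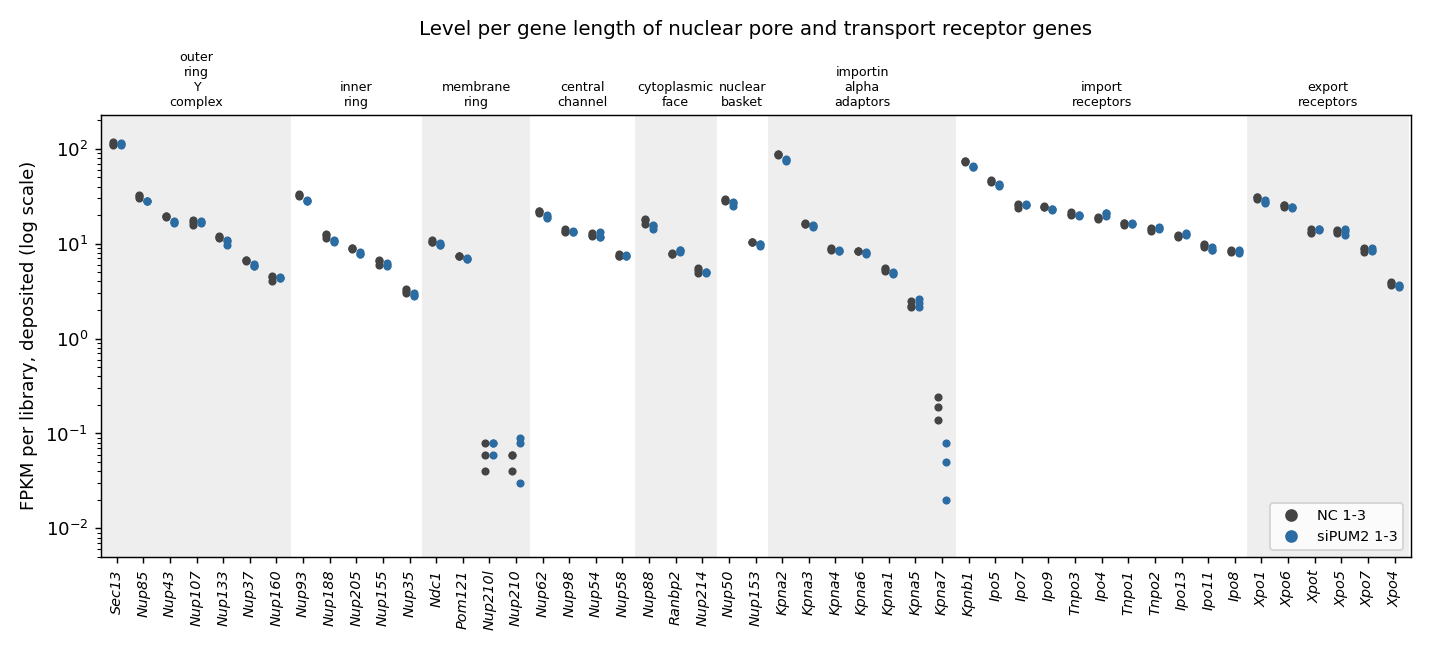
Deposited FPKM in each library (y axis, log scale) of the 49 genes, ordered within each role by their level in NC. Black points are NC 1 to 3 and blue points siPUM2 1 to 3. Sec13 (114 FPKM in NC) is highest, and Kpna7, Nup210 and Nup210l lie below 0.3 FPKM.

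Promoter entries (250 bases before to 50 after the start, RefSeq, GRCr8) were matched by symbol for 42 of the 49 genes, and a gene with several entries was counted once if any held the motif. The shares of promoters set beside these count each entry on its own, so the units differ. Kpna1, Kpna3, Kpnb1, Ndc1, Nup107, Xpo7 and Xpot had none. Motifs were searched on both strands, and a match is a string of letters, not a site shown to be bound. The YY1 motif (AANATGGCG) was found in 5 of the 42 (11.9%), against 6.18% of the 11430 promoters of tested genes and 3.01% of all 33469. They were Nup188, Nup205, Nup35, Nup88 and Kpna5, of which the first 4 were called lower, which is 4 of 15 called lower and 1 of 27 others. These 3 inner ring genes are shown with Nup88 and Kpna5, 30 bases each, with the match in capitals, for Nup188 the first of 2.
Nup188: accagggcagCGCCATCTTgacagcccctt
Nup205: gtcctcctccAAGATGGCGgcgctgttggc
Nup35: gaagagtttcCGCCATTTTtgaaaactggg
Nup88: ctgttggtccAAGATGGCGgctgccgcggg
Kpna5: cgctgggagcCGCCATCTTgggttgcttag
They lie at chr3:33957691-33957720 (plus strand), chr4:64822056-64822085 (plus), chr3:85965872-85965901 (plus), chr10:56190796-56190825 (minus) and chr20:31365674-31365703 (plus). The match reads forward after the start in Nup205 and Nup88, at base 16 and base 15, and in reverse before the start in Nup188 (-111) and Nup35 (-25) and across it in Kpna5 (-1). The second match of Nup188 reads forward after the start, at base 15, as in Nup88.

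The other motifs are given with the same split, and among them E2F stood further above its share in promoters of tested genes than YY1. The GC box of SP1 (GGGCGG) was in 25 of the 42 genes, the same share as in promoters of tested genes (59.5% in both), with 13 of the 15 genes called lower and 12 of the 27 others holding it. CCAAT was in 20 of 42 (47.6%, against 37.7% of promoters of tested genes), with 9 of 15 called lower and 11 of 27 others. The NRF1 motif (GCGCA and GCGC with any 1 base between) was in Nup62, Nup50, Ipo9 and Xpo5 (9.52%, against 9.49%), which is 3 of 15 called lower and 1 of 27 others, and the E2F motif (TTTNGCGC) in Nup50, Ipo11, Nup155 and Nup214 (9.52%, against 2.23%), which is 1 of 15 and 3 of 27. The E2F match of Nup50 (-127) overlaps one of its NRF1 matches (-123). The ETS motif (CCGGAAG) was in 7 of 42 (16.7%, against 17.2%), 1 of 15 called lower and 6 of 27 others, among them Ipo4, which rose. No test was made of these counts.

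The Ran cycle powers transport through the pore. Of 24 tested genes of Ran regulation and other transport factors 9 fell (37.5%), none rose and 15 were not called, with a median log2 fold change of -0.11. Over all genes tested 13.3% were lower and 15.1% higher, and over those of at least 10 CPM 17.8% and 19.5%. The list also held pore proteins (Aaas, Tpr, Rae1, Ahctf1 and Gle1) and cap-binding proteins (Ncbp1, Ncbp2 and Ncbp3). Its share is thus not one of Ran regulation alone. Ran itself (chromosome 12) gave 1046, 1095 and 1066 CPM in the NC libraries against 901, 918 and 931 CPM in the siPUM2 libraries, a 1.17-fold fall (adjusted p = 7.50e-08, edgeR). Rcc2, a chromatin and mitotic protein related to the Ran exchange factor, fell 1.19-fold from 183 ± 2.36 to 155 ± 4.72 CPM. Ranbp1, which helps to release Ran from receptors, fell 1.13-fold from 341 ± 2.58 to 303 ± 4.84 CPM, and Nutf2, the carrier that returns Ran to the nucleus, 1.11-fold from 201 ± 2.82 to 181 ± 3.13 CPM. The other genes called lower were Rangap1, Ranbp3, Rangrf, the nucleoporin gene Aaas, and Cse1l, the exportin that returns importin alpha to the cytoplasm. In Rangap1 the groups overlapped, with siPUM2 3 (198 CPM) above NC 1 (196 CPM). The calls of Cse1l and Rangrf were lost without NC 3 (adjusted p = 0.0779) and without siPUM2 1 (0.208).

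Genes of messenger RNA export went both ways. Of 27 tested 9 fell (33.3%, against 17.8% of all genes of at least 10 CPM) and 3 rose (against 19.5%), with a median log2 fold change of -0.07. Alyref, the adaptor that links splicing to export, went from 138 ± 4.02 to 115 ± 2.52 CPM, a 1.20-fold fall (edgeR, adjusted p = 7.27e-08), and Poldip3 and Chtop, further adaptors, fell 1.11-fold each. Fyttd1, an adaptor of the same kind, rose 1.14-fold from 63.3 ± 3.38 to 71.8 ± 1.77 CPM, and the THO subunit Thoc2 rose from 44.6 ± 1.03 to 51.4 ± 1.0 CPM. The export receptor Nxf1 was not called (log2 fold change 0.02).

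Genes of the lamina and envelope had no common direction. Of 22 tested 5 fell (22.7%, against 17.8% of all genes of at least 10 CPM) and 3 rose (against 19.5%), with a median of 0.004. These counts are near those shares and are no result about the list. Lamin B1 (Lmnb1) went from 115 ± 4.14 to 94.7 ± 5.18 CPM, a 1.22-fold fall (edgeR, adjusted p = 2.94e-07), Banf1, which joins chromatin to the envelope, fell 1.09-fold and Tmpo 1.08-fold. Sun2, which ties the lamina to the cytoskeleton, rose 1.13-fold from 165 ± 4.30 to 186 ± 5.72 CPM. Lamin A (Lmna) was at -0.06 and not called (adjusted p = 0.101).

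**Figure D5:**
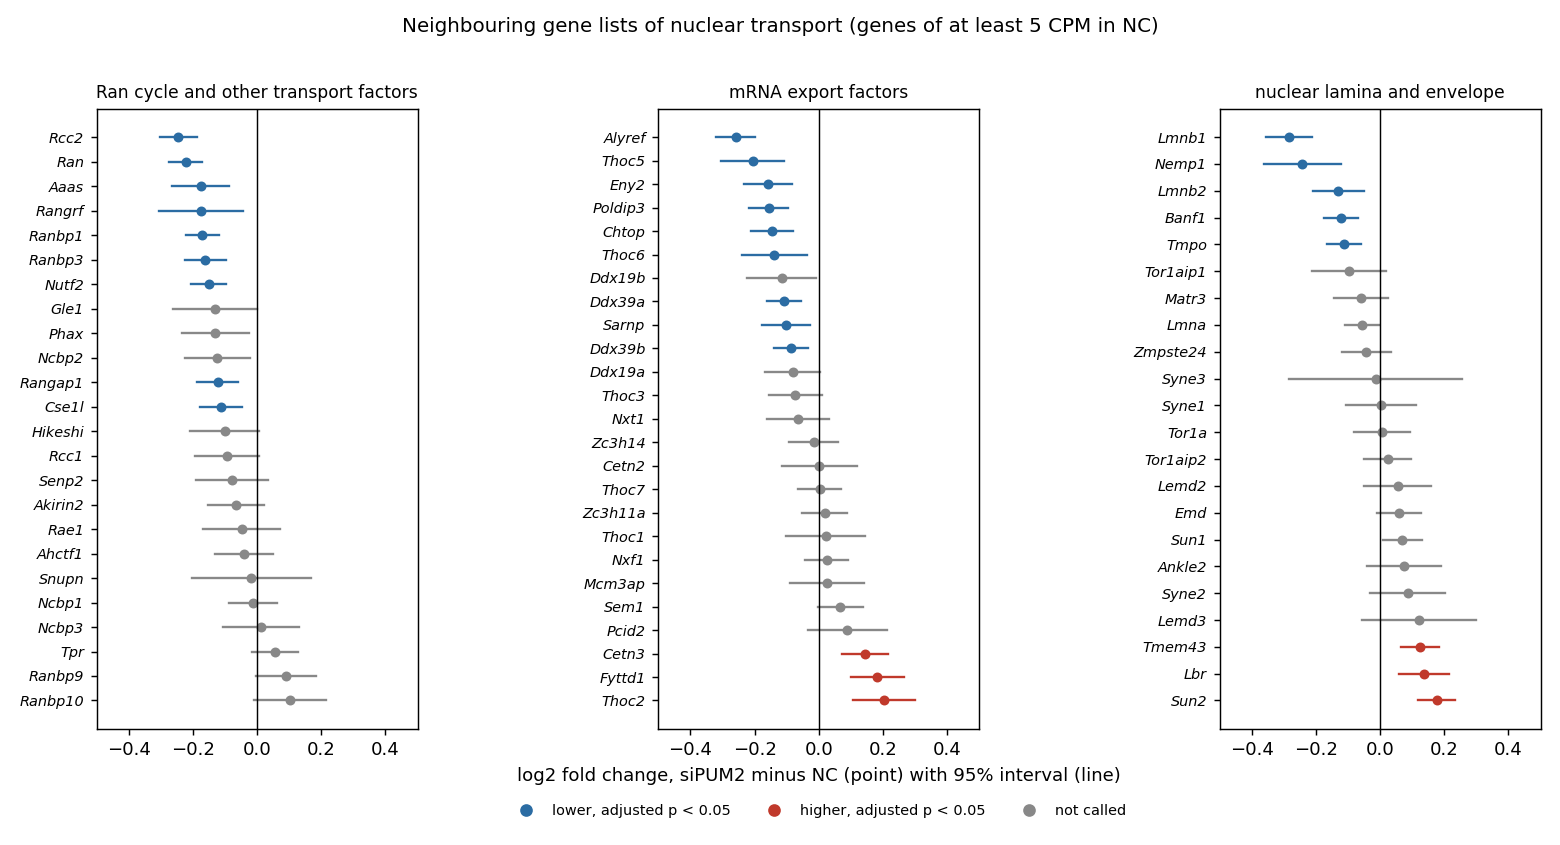
Log2 fold change (siPUM2 minus NC, x axis) with its 95% interval for 71 genes of at least 5 CPM in NC, in lists of the Ran cycle and other transport factors, messenger RNA export and the nuclear lamina and envelope. Colours are as in the plot by role. Calls of the Ran list are all on the lower side (9 of 24), while the other lists have calls on both sides.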

How the data were processed

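The authors deposited 2 tables with 1 column per library, per the file headers: raw counts for each gene, and FPKM, which is scaled for gene length and depth and was rounded to 2 decimals. Per the labels' protocols, poly(A) RNA was captured and the libraries were strand-specific. HISAT2, DESeq2 and the build mRatBN7.2 appear in the submitters' processing notes, and the counting program is not given in the sources used here. No row lacked a gene name.

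Counts were tested with edgeR 4.0.16 in R 4.3.3 (quasi-likelihood, TMM, filterByExpr, group as the only term), with Benjamini-Hochberg adjustment over 12985 genes. The filter removed 6840 genes with 0.0465% of the counts. Intervals are 95% and SEs come from the F statistic. The test was tested on simulated data. Alternatives used DESeq2 1.42.0, limma 3.58.1, other scalings, filters and units, a block for the replicate number, libraries left out in turn, and a correction for gene length. Adding a Kpna2-like gene to Kpna2 was chosen after seeing the data.

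Members, roles and lists were chosen with earlier results of these data known. Named were all called members, the highest of each role by FPKM, Pum2, and the 4 genes with the lowest p of each neighbouring list. Other members, single marker genes, Thoc2, Nxf1, Lmna, and the other called genes and the pore and cap-binding proteins of the Ran list, were named after their values were seen. Protein sequences were not used here, so the planned repeat counts and identities were not computed.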

Additional observations from a re-analysis of the deposited data

How the results depend on the processing

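Of the 18 called genes of the pore and its receptors, 12 kept their call and direction in every alternative tried: Nup43, Nup85, Nup93, Nup188, Nup205, Nup62, Kpna2, Kpnb1, Ipo5, Ipo9, Ipo4 and Xpo1. The other 6 (Nup133, Nup37, Nup35, Nup88, Nup50 and Ranbp2) kept their direction and each lost the call in at least 1. The number called lower, 16, ran from 12 (without NC 2) to 16 when 1 library was left out, and was 12 at an adjusted p under 0.01, 15 with DESeq2, 21 with upper quartile factors and 22 with the trends with gene length removed. The number called higher, 2, was 1 on log2(FPKM + 1), on log2(FPKM + 0.1) and with the length trends removed, in each case without Ranbp2, and ran from 1 to 3 when 1 library was left out. The cause was not tested. The median log2 fold change ran from -0.09 to -0.06. Sec13, not called, ran from -0.037 (without siPUM2 1) to 0.013 (without NC 1), and was 0.011 without siPUM2 2. Deviations of NC and siPUM2 libraries from their group means correlated at -0.081 to 0.075 for the same number and -0.096 to 0.131 for different numbers. With so few libraries this cannot exclude a pairing. The fit with the replicate block called 18 lower and 2 higher, with Ipo11 and Kpna1 added and none lost. Depth limited Nup210, Nup210l and Kpna7, at 23 counts or fewer per library.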

Other observations

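Other genes of the same machinery fall outside the symbols used above and were looked at after the results were known. Nupl2, an older symbol of Nup42, a nucleoporin of the cytoplasmic face, was at 23.8, 23.5 and 25.7 CPM in NC and at 20.1, 21.0 and 21.4 CPM in siPUM2, a 1.17-fold fall (adjusted p = 0.00450, edgeR). Ranbp6, a relative of Ipo5, was at 37.3, 37.0 and 38.3 CPM in NC and at 32.4, 33.9 and 34.3 CPM in siPUM2, a 1.12-fold fall (adjusted p = 0.0218), and its adjusted p reached 0.0740 without siPUM2 1. Ranbp17, a relative of Xpo7, had 8 to 19 counts per library and was not called (adjusted p = 0.558). Some pore proteins of the Ran list also fall outside the symbols. Among them Aaas was called lower (log2 fold change -0.18). Tpr (0.06), Ahctf1 (-0.04), Rae1 (-0.05) and Gle1 (-0.13) were not called and had overlapping groups.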
